A study of Homo sapiens with 9 samples.

Results

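The transcripts of the mitochondrial genome were followed in MDA-MB-453 cells grown attached or in forced suspension. All 37 genes whose symbol starts with MT-, of 59452 symbols in the gene table, were included. They comprised 13 mRNAs, 2 rRNAs and 22 tRNAs. Membership followed the gene symbol, but the set was chosen by measured values, with earlier results of these data known. These values were the share of counts in each library and the order of levels along the heavy and light strands. Both belong to the definition of this set, so they are given as a description without a test. The p-values given below for the members come from the same libraries, so they are not an independent test of the set.

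MDA-MB-453 is a human breast cancer cell line that the sample descriptions call triple-negative, with no genetic change added in any group. Cells were kept for 48 hours in DMEM with fetal bovine serum in 3 conditions, with 3 libraries each. These were attached culture with the vehicle DMSO, suspension over poly-HEMA with DMSO, and suspension with AT-0174 at 10 µmol/L. Poly-HEMA is a coating that keeps cells from adhering, and AT-0174 inhibits TDO2 and IDO1, the enzymes that open tryptophan breakdown. Suspended cells with AT-0174 had no attached counterpart, so the effect of the drug could be read only in suspension. All libraries came from 1 cell line, and the methods describe biological triplicates.

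The libraries held 36649997 to 48019126 estimated counts, and no replicate matched another of its own group within sampling noise. Luminal epithelial markers were high in every library, with GATA3 at 46164 to 62697 counts, whereas 5 of 6 fibroblast markers reached at most 8 counts. COL1A1, the exception among them, had 4337 to 5789 counts. Of the leukocyte and endothelial markers, CD68 reached 102 counts and no other exceeded 13. Estrogen and progesterone receptor transcripts (ESR1, PGR) reached at most 18 counts, but ERBB2, which encodes HER2, had 37764 to 50812. ERBB2 RNA was thus abundant in cells labelled triple-negative, and HER2 protein was not measured in these libraries.

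The human mitochondrial genome is a small circle that is transcribed from both strands into long precursors. Excision of the tRNAs, which lie between most of the other genes, releases the mRNAs and rRNAs. The mRNAs encode core subunits of the respiratory chain and of ATP synthase, and every other subunit of these complexes is made from nuclear genes. Because all mRNAs on one strand begin as one precursor, differences in their levels are generally attributed to processing and decay as well as to transcription. The RNA polymerase POLRMT, with TFAM and TFB2M, transcribes the genome, and LRPPRC with SLIRP protects the mRNAs.

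On the mitochondrial chromosome of GRCh38, which has 16569 bases, 28 of the genes are transcribed from the heavy strand and 9 from the light strand. The heavy-strand genes include 12 of the mRNAs and both rRNAs. The light-strand genes are MT-ND6 and 8 tRNAs. The mRNAs fall into 7 for complex I (MT-ND1, MT-ND2, MT-ND3, MT-ND4, MT-ND4L, MT-ND5 and MT-ND6), 1 for complex III (MT-CYB), 3 for complex IV (MT-CO1, MT-CO2 and MT-CO3) and 2 for ATP synthase (MT-ATP6 and MT-ATP8).

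Most mitochondrial mRNAs carry short poly(A) tails, MT-ND6 being known to lack one, and for several of them the tail supplies the end of the stop codon. In the annotation, 6 of the 13 mRNAs end in a partial stop codon and 7 in a complete one. The last 30 bases are shown for 6 mRNAs that span the range of changes described further on, in the sense orientation from GRCh38, with the annotated stop bases in capitals. MT-ND1 and MT-ND4 had the lowest log2 fold changes of the 13 mRNAs in suspension, MT-ND3 and MT-CO3 had the smallest falls, MT-CO1 was the most counted gene, and MT-ND6 is the mRNA of the light strand.
MT-ND1 (chrM:4233-4262, plus strand): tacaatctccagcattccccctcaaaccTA
MT-ND4 (chrM:12108-12137, plus strand): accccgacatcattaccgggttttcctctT
MT-ND3 (chrM:10375-10404, plus strand): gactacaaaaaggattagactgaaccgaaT
MT-CO3 (chrM:9961-9990, plus strand): tgtatgtctccatctattgatgagggtctT
MT-CO1 (chrM:7416-7445, plus strand): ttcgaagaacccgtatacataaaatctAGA
MT-ND6 (chrM:14149-14178, minus strand): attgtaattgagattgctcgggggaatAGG

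Neighbouring mRNAs of the heavy strand overlap at 3 places, so that reads from the overlap belong to both. MT-ATP8 and MT-ATP6 share 46 bases, MT-ND4L and MT-ND4 share 7, and MT-ATP6 and MT-CO3 share 1. The MT-ATP8 and MT-ATP6 overlap is shown on the plus strand because it bears on how reads were divided between these genes, with the start codon of MT-ATP6 and the stop codon of MT-ATP8 in capitals.
Overlap of MT-ATP8 and MT-ATP6 (chrM:8527-8572, plus strand): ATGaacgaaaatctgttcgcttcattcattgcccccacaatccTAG

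Mitochondrial transcripts took a smaller share of the RNA in suspension than in attached culture. In attached cells with vehicle, their share of all estimated counts was 7.69%, 7.56% and 9.32% in replicates 1, 2 and 3. In suspended cells with vehicle it was 4.34%, 4.12% and 4.05%. In suspended cells with AT-0174 it was 3.73%, 5.51% and 4.72%. Every attached library lay above every suspended library, while the libraries with AT-0174 lay on both sides of those with vehicle. The means were 8.19% ± 0.984, 4.17% ± 0.151 and 4.65% ± 0.887 (SD, n = 3 each), a 1.96-fold ratio of attached to suspended vehicle. Per length, in TPM (transcript counts divided by effective length and scaled to a common sum), the share was 17.6% ± 1.77, 9.9% ± 0.223 and 10.7% ± 1.92, respectively.

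**Figure D1:**
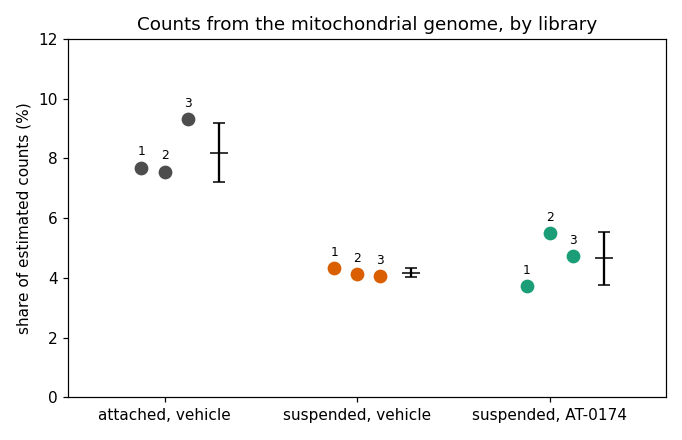
Share of estimated counts from the 37 mitochondrial genes (vertical axis, percent) in each library (points, numbered by replicate), with the mean and SD of each group (bars, n = 3). The attached libraries sit between 7.56% and 9.32% and all suspended libraries between 3.73% and 5.51%, and AT-0174 replicates 1 and 2 are the lowest and the highest of the suspended libraries.

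Such a share is relative to the rest of the RNA. RNA per cell was not measured, and in bulk RNA a lower level in every cell and a smaller number of cells with a high level cannot be told apart. In each attached library, 8 of the 10 most counted genes were mitochondrial mRNAs. In each suspended library with vehicle this number was 4, and with AT-0174 it was 4, 6 and 5. MT-CO1, the catalytic subunit of cytochrome c oxidase, was the most counted gene of all in each of the 9 libraries, with 1.52% to 1.94% of counts in attached and 0.824% to 0.896% in suspended cells with vehicle.

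The 13 mRNAs and 2 rRNAs passed the filter on low counts, with at least 2143 counts in every library, and none of the 22 tRNAs did. Of the tRNAs, 11 were at 0 in all libraries, and the others reached at most 5 counts in a library, with 76 counts over all 9 libraries together. Where no read was counted, up to 3 counts remain possible from counting error alone, which is 0.0625 to 0.0819 CPM (counts per 1e6 of the library total). The tRNAs were therefore not measurable here. Their effective lengths, the number of positions from which the quantification lets a fragment start, were only 7.8 to 9.9 bases.

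To ask whether the loss of attachment changed these transcripts gene by gene, suspended and attached cells with vehicle were compared with edgeR's quasi-likelihood test over 15528 genes. Levels are given in CPM scaled by the trimmed mean of M values (TMM), and p-values are Benjamini-Hochberg adjusted over all genes tested. All 15 mitochondrial genes that passed the filter were lower in suspension, against a background of 10.8% of all tested genes. In all 15, each suspended library was below each attached library, which was so for 18.7% of all tested genes. The log2 fold changes ran from -1.35 to -0.45 with a median of -1.01, whereas the median of all genes was -0.0003. The standard errors were 0.0731 to 0.153 and the adjusted p-values 6.38e-05 to 0.00197. Since the share of counts belongs to the definition of the set and comes from the same contrast, these counts describe the members and nothing is read from the background.

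**Figure D2:**
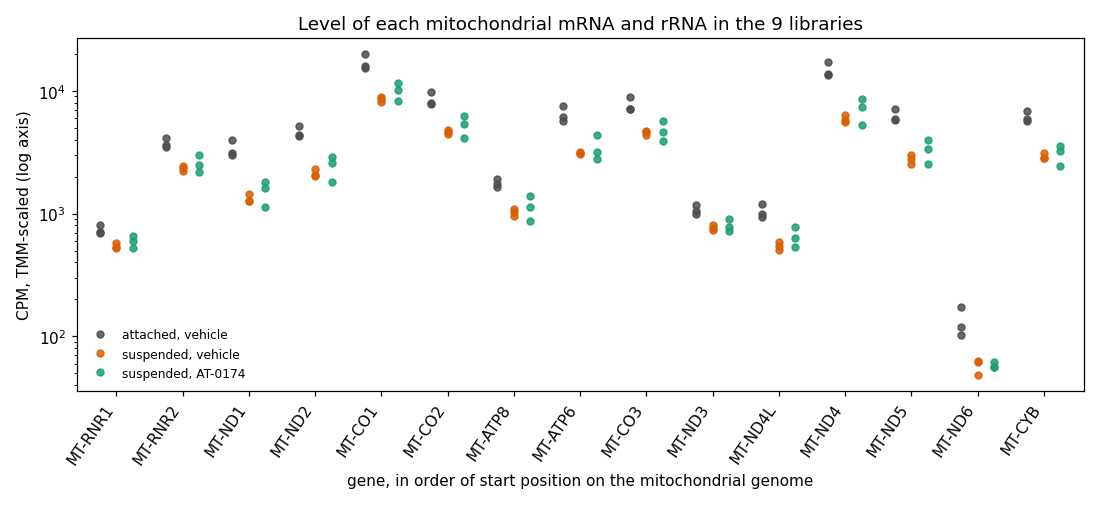
Level of each mitochondrial mRNA and rRNA (vertical axis, TMM-scaled CPM on a log scale) in the 9 libraries (points), with genes in the order of their start on the mitochondrial genome. For each of the 15 genes the attached libraries lie above the suspended libraries with vehicle, and the libraries with AT-0174 overlap the latter.

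The complex I subunits showed both the largest falls and the smallest fall of the mRNAs. MT-ND4, a membrane subunit of the proton-pumping arm, stood at 13633, 13552 and 17166 CPM in attached cells and at 6375, 5765 and 5542 CPM in suspended cells. The groups were far apart, and the level fell to 39.9% of that in attached cells, a log2 fold change of -1.33 (adjusted p = 9.36e-05 in edgeR, standard error 0.14). MT-ND1, the membrane subunit next to the quinone site, had 2988, 3116 and 3971 CPM in attached and 1442, 1264 and 1260 CPM in suspended cells. Its log2 fold change of -1.35 (adjusted p = 0.000121 in edgeR, standard error 0.147) was the lowest of the 15. MT-ND5, another subunit of the proton-pumping arm, fell by 1.19 on the log2 scale (6272 ± 753 to 2753 ± 241 CPM, SD, n = 3 each), and MT-ND2 fell by 1.11 (4615 ± 515 to 2142 ± 147 CPM). MT-ND4L, which is read from the same RNA as MT-ND4, fell by 0.93 (1037 ± 139 to 544 ± 44.3 CPM).

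MT-ND3, a small complex I subunit, changed least among the mRNAs. It had 1054, 997 and 1174 CPM in attached and 761, 740 and 809 CPM in suspended cells. Attached and suspended libraries did not overlap, but the suspended level was still 71.6% of the attached level, a log2 fold change of -0.48 (adjusted p = 0.0011 in edgeR, standard error 0.0731). The 95% intervals of MT-ND3 (-0.64 to -0.32) and MT-ND4 (-1.63 to -1.02) did not overlap. These genes were taken from near the ends of the range and share their libraries, so this is no test of their difference.

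MT-ND6, the only mRNA of the light strand, was the lowest of the 15 both in CPM and, per length, in TPM. It had 119, 102 and 172 CPM in attached and 62.1, 63 and 48.8 CPM in suspended cells with vehicle. Attached replicate 3 was the highest library by a wide margin, and the log2 fold change was -1.18 (adjusted p = 0.000441 in edgeR, standard error 0.153). Its RNA is known to lack a poly(A) tail, and the part of this in its low level here was not tested. Whether the counting used strand is not given in the sources used here, so reads from MT-ND6 and from heavy-strand RNA opposite to it cannot be told apart.

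MT-CYB, the cytochrome b of complex III, had 5861, 5679 and 6858 CPM in attached and 3088, 2810 and 2849 CPM in suspended cells. It had the lowest adjusted p-value of the 15, with a log2 fold change of -1.07 (adjusted p = 6.38e-05 in edgeR, standard error 0.108).

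In complex IV, MT-CO1 had 15880, 15418 and 19952 CPM in attached and 8900, 8503 and 8058 CPM in suspended cells. Its level fell to 49.7% of that in attached cells (log2 fold change -1.01, edgeR adjusted p = 0.000121, standard error 0.11). MT-CO2, which carries the site that takes electrons from cytochrome c, fell by 0.88 on the log2 scale (8502 ± 1030 to 4626 ± 161 CPM, SD, n = 3 each), and MT-CO3 fell by 0.75 (7670 ± 1050 to 4561 ± 190 CPM). Attached replicate 3 was the highest library for both MT-CO2 (9691 CPM) and MT-CO3 (8882 CPM).

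The ATP synthase subunits MT-ATP6, part of the proton channel, and MT-ATP8, which helps to anchor the stalk, fell by 1.06 (6471 ± 979 to 3102 ± 66.5 CPM) and by 0.80 (1777 ± 132 to 1024 ± 68.7 CPM) on the log2 scale. Both are carried by 1 RNA. The TPM ratio of MT-ATP8 to MT-ATP6 was 1.9 to 2.6 over the libraries, and that of MT-ND4L to MT-ND4, which also share an RNA, was 0.582 to 0.852. Effective lengths of MT-ATP8 were only 68.6 to 71 bases, so its level per length rests on a short window.

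The rRNAs changed less than most mRNAs. MT-RNR1, the RNA of the small mitochondrial ribosomal subunit, had 697, 710 and 812 CPM in attached and 573, 520 and 535 CPM in suspended cells, the smallest fall of the 15 (log2 fold change -0.45, edgeR adjusted p = 0.00197, standard error 0.0751). MT-RNR2, the RNA of the large subunit, had 3635, 3454 and 4134 CPM in attached and 2330, 2451 and 2220 CPM in suspended cells (log2 fold change -0.68, edgeR adjusted p = 0.000744, standard error 0.0972). Libraries made by selecting poly(A) RNA hold only part of the rRNA, so these values are not levels of ribosomes.

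With a fold of 2 as a limit, 8 of the 15 genes had a log2 fold change of -1 or lower, against 0.818% of all tested genes. MT-CO1 (-1.01) was just inside this limit and MT-ND4L (-0.93) just outside. The loss of mitochondrial CPM from attached to suspended cells summed to 42314 CPM, which was 56.8% of the summed fall over all genes that were lower in suspension. With attached replicate 3 left out, 4 of the 15 genes kept a log2 fold change of -1 or lower. In a ranking of all tested genes from the lowest log2 fold change up, however, the 15 genes stood between place 86 and place 1272, so that nuclear genes held the lowest places.

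**Figure D3:**
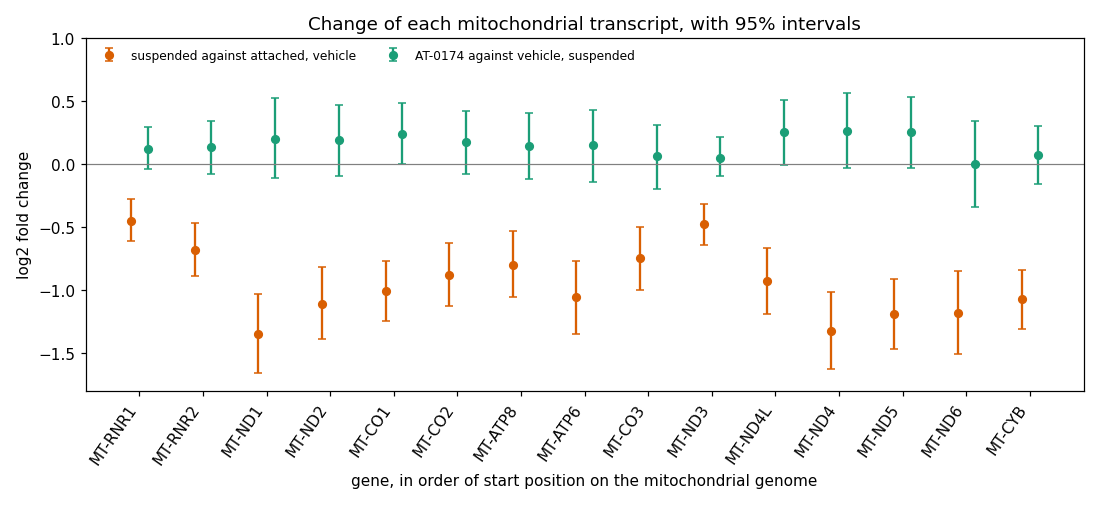
Log2 fold change (vertical axis) of each mitochondrial mRNA and rRNA, with 95% intervals, for suspended against attached cells with vehicle (orange) and for AT-0174 against vehicle in suspended cells (green), in the order of gene starts. The orange values run from -1.35 to -0.45 with every interval below 0, and the green values run from 0.0017 to 0.26.

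The falls were unequal, and the make-up of the mitochondrial pool differed with them. As a share of all mitochondrial counts, MT-ND1 had medians of 4.07% in attached and 3.18% in suspended cells with vehicle, and MT-ND4 of 17.7% and 14.2%. MT-ND3 was at 1.23% to 1.36% in attached and 1.77% to 2.04% in suspended cells. MT-RNR1 was at 0.847% to 0.926% and 1.28% to 1.35%. MT-CO1 kept its place, with 20.1% to 20.8% in attached and 20.3% to 21.0% in suspended cells, overlapping ranges. The share was lower without overlap for MT-ND1, MT-ND2, MT-ND4 and MT-ND5 and higher without overlap for MT-CO2, MT-CO3, MT-ATP8, MT-ND3 and both rRNAs. Genes carried by 1 RNA also differed, with log2 fold changes of -0.80 for MT-ATP8 and -1.06 for MT-ATP6. MT-ND4L and MT-ND4 had -0.93 and -1.33. Gaps of this size between genes therefore need not be differences between RNAs.

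When libraries were scaled to the sum of mitochondrial counts in the edgeR fit, so that a value is a change relative to the mitochondrial pool, 2 genes passed the threshold as lower (MT-ND1 at -0.32, MT-ND4 at -0.31) and 4 as higher (MT-RNR1 at 0.57, MT-ND3 at 0.54, MT-RNR2 at 0.34, MT-CO3 at 0.27). Because the members make up this sum, lower values of some go with higher values of others by construction. Under this scaling 13902 of the 15528 genes passed, so adjusted p-values lie close to unadjusted ones.

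Summed by complex, complex I mRNAs made up 39.4%, 39.9% and 39.6% of mitochondrial mRNA counts in attached and 35.9%, 35.3% and 34.6% in suspended cells with vehicle. Complex IV mRNAs made up 41.9%, 42.1% and 42.4% in attached and 45.8%, 46.2% and 46.9% in suspended cells. Neither pair of ranges overlapped, and complex IV took the larger share in both conditions. The sums were not uniform over their members. MT-ND4 alone went from a median of 17.7% to 14.2% of all mitochondrial counts, MT-ND3 went the other way and MT-CO1 kept its share. The share of complex III was 7.54% to 7.99% in attached and 7.49% to 7.73% in suspended cells, and that of ATP synthase was 10.2% to 10.7% in attached and from 10.6% up in suspended cells, so both overlapped. Per length, as a share of mRNA TPM, complex III was at 5.05% ± 0.0844 in attached and 4.62% ± 0.0877 in suspended cells (SD, n = 3 each) without overlap. The 2 rRNAs counted 5.44 to 5.91 per 100 mRNA counts in attached cells and 7.22 to 7.91 in suspended cells.

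**Figure D4:**
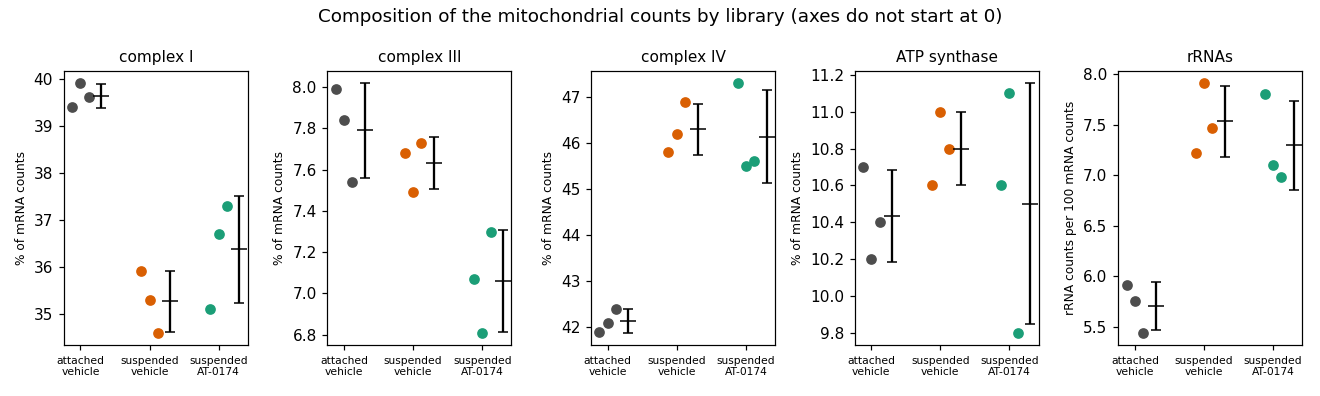
Share of mitochondrial mRNA counts by complex (percent) and rRNA counts per 100 mRNA counts (last panel) in each library (points), with the mean and SD of each group (bars, n = 3), on axes that do not start at 0. Complex I lies lower and complex IV and the rRNAs lie higher in suspended than in attached libraries without overlap, and complex III lies lower with AT-0174 (6.81% to 7.3%) than with vehicle in suspension, which did not hold in TPM.

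Among the heavy-strand mRNAs, the size of the fall did not follow the distance from the start of transcription. Spearman's rank correlation between position and log2 fold change was 0.02 over the 12 heavy-strand mRNAs. It left out the rRNAs MT-RNR1 (-0.45) and MT-RNR2 (-0.68), which lie nearer the start and fell less than most mRNAs. As a ratio of the distal genes MT-ND5 and MT-CYB to the proximal genes MT-ND1 and MT-ND2, counts stood at 1.61, 1.54 and 1.52 in attached and 1.62, 1.67 and 1.62 in suspended cells with vehicle, a narrow gap without overlap. The same rank correlation was -0.57 with annotated length, -0.27 with GC content and 0.57 with the TPM in attached cells over the 13 mRNAs, all as descriptions over genes that share precursors and libraries. mRNAs with a partial stop codon, such as MT-ND1 and MT-ND3 printed above, had log2 fold changes of -1.35 to -0.48 (median -1.09) and those with a complete one had -1.19 to -0.8 (median -1.01), so the former contained both ends of the range.

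Between the strands, MT-ND6 counted 0.163, 0.14 and 0.189 per 100 heavy-strand mRNA counts in attached culture, 0.155, 0.168 and 0.132 in suspended cells with vehicle and 0.163, 0.119 and 0.128 with AT-0174. The 3 groups overlapped, so no difference in this ratio was detectable at this number of libraries. MT-ND6 is known to lack a poly(A) tail, and its reads could not be told apart from opposite heavy-strand RNA. The ratio is therefore not a measure of the balance of the strands.

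The order of the mRNAs per length was much the same in every library. In TPM, MT-ATP8 took place 1, MT-CO2 place 2, MT-CO1 place 4, MT-ND2 place 10 and MT-ND6 place 13 in all 9 libraries. The other mRNAs each ranged over 2 to 4 places, with MT-ATP6 between place 3 and 6 and MT-CO3 between 3 and 5. Since MT-ATP8 and MT-ATP6 are carried by 1 RNA, the gap between their places is not a gap between RNAs. In attached cells MT-CO2 had 22424 ± 2302 TPM. The next 4 by mean were MT-ATP6 (17164 ± 2300), MT-CO1 (16974 ± 2177), MT-CO3 (16957 ± 2004) and MT-ND4 (16676 ± 2025). These SDs are between libraries and do not measure differences between genes within a library. MT-CO1 stood above MT-ND4, which ranged over places 5 to 6, in every library. The MT-ATP6 values leave out reads given to its nuclear copy MTATP6P1, 15.2% to 20.6% of their summed counts. The place of MT-ATP6 among these genes is therefore uncertain. In suspended cells with vehicle, MT-CO3 (10874 ± 353 TPM) stood above MT-CO1 (9118 ± 327) and MT-ATP6 (8863 ± 123), and MT-ND4 (7184 ± 406) stood below them. MT-ND6 was at 497 ± 130 TPM in attached and 236 ± 31 TPM in suspended cells (SD, n = 3 each).

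Nuclear genes for the same complexes went the other way or did not pass the test. Of 74 nuclear subunits of complexes I, III, IV and ATP synthase, 34 were higher in suspension and 0 were lower by edgeR, against 10.4% of all tested genes higher. Their median log2 fold change was 0.11, and 66 of the 74 values were positive. At an unadjusted p under 0.05 still 0 were lower, and DESeq2 and limma-voom called 34 and 33 higher and 0 lower. By complex, 12 of 37 for complex I, 5 of 9 for complex III, 8 of 11 for complex IV and 9 of 17 for ATP synthase were higher. Complex II (succinate dehydrogenase), which has no mitochondrial gene, had 3 of 4 higher. These changes were small beside those of the mitochondrial genes.

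ATP5F1B, the catalytic beta subunit of ATP synthase, had 592 ± 13.3 CPM in attached cells and 674 in suspension, and it rose (log2 fold change 0.19, edgeR adjusted p = 0.00167, standard error 0.0305). With ATP5MK (log2 fold change 0.26) and ATP5MC3 (0.16) it had the smallest p-values of the ATP synthase list. In the other lists the smallest p-values belonged to NDUFB4 (0.20), NDUFB5 (0.18) and NDUFAB1 (0.22) for complex I, to CYC1 (0.18), UQCRFS1 (0.20) and UQCRC2 (0.13) for complex III and to COX7B (0.21), COX8A (0.19) and COX7A2 (0.20) for complex IV. In complex II they belonged to SDHC (0.18) and SDHD (0.22), the membrane anchors, and to SDHB (0.13), an iron-sulfur subunit. All of these rose.

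**Figure D5:**
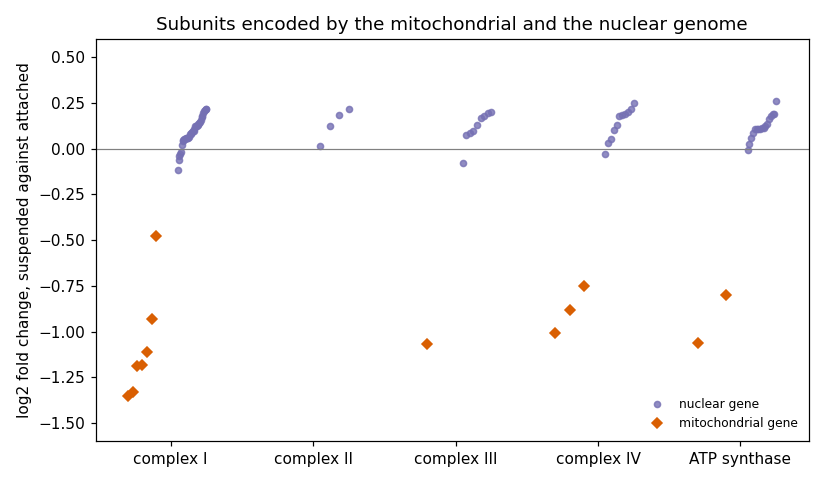
Log2 fold change of suspended against attached cells with vehicle (vertical axis) for mitochondrial (diamonds) and nuclear (circles) genes of each respiratory complex, sorted within a complex. The mitochondrial genes lie between -1.35 and -0.48 and below every nuclear gene of their complex, and none of the nuclear genes shown passed the test as lower.

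The ratio of the summed TPM of mitochondrial subunits to that of nuclear subunits was lower in suspension in each complex. For complex I it was 7.32 to 9.32 in attached and 3.53 to 3.72 in suspended cells with vehicle. For complex IV it was 16.0 to 20.5 and 8.39 to 9.07. Complex III went from a median of 4.34 to 1.99 and ATP synthase from 10.5 to 5.31. No suspended library with vehicle reached any attached library in these ratios.

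Of 34 factors that transcribe and process mitochondrial RNA, 11 were higher and 1 was lower in suspension, beside 10.4% higher and 10.8% lower among all tested genes, and the median over the list was 0.09 on the log2 scale. The 3 with the smallest p-values all rose. DDX28, a helicase that acts in mitochondrial ribosome assembly, had a log2 fold change of 0.33 (adjusted p = 0.00319 in edgeR). FASTKD2, an RNA-binding protein, had 0.27, and MTPAP, the mitochondrial poly(A) polymerase, had 0.25. The lower gene was FASTK (-0.20, adjusted p = 0.0301 in edgeR), which is named here because of its direction.

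The core factors were picked for their roles after their values were seen. POLRMT was at 79.6 ± 0.971 CPM in attached and 80.2 ± 4.89 CPM in suspended cells with vehicle (log2 fold change 0.01, adjusted p = 0.888 in edgeR). TFB2M rose by 0.33, LRPPRC by 0.20, TFAM by 0.15 and SLIRP by 0.15 on the log2 scale, with adjusted p-values of 0.00801, 0.00907, 0.0159 and 0.0295 in edgeR. Of the 10 factors of mitochondrial DNA replication, edgeR, DESeq2 and limma-voom each called 0 in suspension, with 2, 2 and 1 lower at an unadjusted p under 0.05.

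The 10 listed RNAs without a poly(A) tail differed between the conditions in their summed share. They made up 0.00675% to 0.00767% of counts in attached cells, 0.00903% to 0.0095% in suspended cells with vehicle and 0.00611% to 0.00707% with AT-0174. Of 6 tested, 2 were higher in suspension, beside 10.4% of all tested genes. These were RN7SL2 at 0.42 and RN7SL1 at 0.28 on the log2 scale, RNAs of the signal recognition particle. RMRP at 0.23 and RPPH1 at -0.27 did not pass. With AT-0174, RN7SL2 was lower, beside 0.779% of all tested genes called in either direction. Replication-dependent histone mRNAs, which also lack such a tail, made up 0.04% to 0.0407% of counts in attached and 0.0423% to 0.0441% in suspended cells with vehicle. Of 44 tested, edgeR called 2 higher and 0 lower, beside 10.4% of all tested genes higher. Their median log2 fold change was 0.03, and DESeq2 called 0 in either direction. A share of all counts also moves with the mitochondrial share. The fibroblast marker COL1A1 was also lower in suspended cells (log2 value -0.28, adjusted p = 0.00182 in edgeR), while COL1A2 and COL3A1 reached at most 4 counts and DCN and LUM were at 0. The part of these differences in the mitochondrial result was not tested.

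The nuclear genome holds copies of mitochondrial genes that can take reads from them. The table held 415 symbols of such copies, of which 55 had any count, and 5 of them had at least 99.6% of all copy counts in each library. All 5 lie on chromosome 1. The largest was MTATP6P1 (GRCh38 chr1:633696-634376), with 24666 to 62462 counts, or 15.2% to 20.6% of the sum of MT-ATP6 and itself. Its 681 bases differ from MT-ATP6 at 10 positions (98.53% identity), and the longest stretch without a difference has 141 bases. A window of 30 bases shows how few bases tell them apart, with the 2 that differ in capitals.
MT-ATP6 (chrM:8648-8677, plus strand): gactaatCaccacccaacaatgactaatcA
MTATP6P1 (chr1:633817-633846, plus strand): gactaatTaccacccaacaatgactaatcC

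The 5 copies were lower in suspension as well. MTATP6P1 was at 1485 ± 122 CPM in attached and 651 ± 130 CPM in suspended cells with vehicle, a log2 fold change of -1.19 (adjusted p = 0.000493 in edgeR, standard error 0.158), beside -1.06 for MT-ATP6. MTND2P28 had -0.94 and MTCO1P12 -0.72, beside -1.11 for MT-ND2 and -1.01 for MT-CO1. MTCO2P12 had -1.02 and MTCO3P12 -0.93, each at 114 counts or fewer in every library, beside -0.88 for MT-CO2 and -0.75 for MT-CO3. Of 9 copies tested, 6 were lower, beside 10.8% of all tested genes. With the counts of the 5 copies added to their genes, all 15 members were still lower, with log2 fold changes from -1.35 to -0.45. Reads of these copies cannot be told apart from misplaced reads of the mitochondrial genes.

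To ask whether inhibition of TDO2 and IDO1 changed these transcripts in suspension, cells with AT-0174 were compared with cells with vehicle. By edgeR, 0 of the 15 genes passed an adjusted p of 0.05, against 0.779% of all tested genes. DESeq2 and limma-voom also called 0. At an unadjusted p under 0.05, 1 gene passed in edgeR, MT-CO1. All 15 log2 fold changes were above 0, from 0.0017 to 0.26 with a median of 0.15, and the groups overlapped for every gene. The 95% intervals together reached from -0.34 to 0.56, so a rise of up to that size, or a smaller fall, could not be seen here.

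MT-CO1 had 8301, 11608 and 10137 CPM with AT-0174, against 8058 to 8900 CPM with vehicle (log2 fold change 0.24, edgeR adjusted p = 0.549, standard error 0.109). MT-ND4 had the highest value of the 15, with 5282, 8538 and 7421 CPM (log2 fold change 0.26, 95% interval -0.03 to 0.56). AT-0174 replicate 1 was lowest and replicate 2 highest in both genes, and the former lay within or below the libraries with vehicle. MT-ND6 had 55.9, 61.6 and 56.5 CPM (log2 fold change 0.0017, 95% interval -0.34 to 0.34).

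These values depended on single AT-0174 libraries. Without AT-0174 replicate 2, the 15 log2 fold changes ran from -0.10 to 0.12. Without AT-0174 replicate 1, they ran from 0.03 to 0.44, and the lowest adjusted p was 0.0906 in edgeR, with 0 genes called. With no filter on low counts, edgeR called 11 of the 15 as higher, with a standard error of 0.0394 for MT-CO1 in place of 0.109.

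Within the pool of mitochondrial counts, MT-CO3 made up 10.8% to 11.6% in suspended cells with vehicle and 9.86% to 10.4% with AT-0174, and MT-CYB made up 6.94% to 7.19% and 6.36% to 6.82%. These were the only 2 of the 15 genes whose shares did not overlap between the groups, and the differences were not tested apart from the fit scaled to the mitochondrial sum, in which the lowest adjusted p over the 15 genes was 0.82 in edgeR. By complex, the share of complex III in mRNA counts was 7.07%, 6.81% and 7.3% with AT-0174, below every library with vehicle, but in mRNA TPM (4.35% ± 0.193 against 4.62% ± 0.0877) the groups overlapped. The share of complex I separated the other way in mRNA TPM, at 29.3% to 30.1% with AT-0174 against 28.5% to 29.1% with vehicle, but overlapped in mRNA counts. Neither separation held in both units. Of the 74 nuclear subunits, edgeR, DESeq2 and limma-voom each called 0 with AT-0174, with 3 higher and 1 lower at an unadjusted p under 0.05 in edgeR, and their median log2 fold change was 0.01.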

How the data were processed

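Total RNA was extracted with an RNeasy kit and sequenced in paired ends. The sample descriptions name a SMARTER mRNA kit and the methods a Universal Plus mRNA kit. The authors trimmed reads with Trim Galore 0.6.7 and Cutadapt 3.4 and used STAR 2.7.9a and Salmon 1.10.1 on GRCh38, and they deposited estimated counts and TPM per transcript and estimated counts per gene, without normalization in the latter. No column of another sample was found.

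Estimated counts were rounded and tested with edgeR 4.0.16 (TMM, filterByExpr, quasi-likelihood, 9 libraries in 3 groups in one fit, Benjamini-Hochberg adjustment, threshold 0.05), and alternatives used DESeq2 1.42.0 and limma 3.58.1 in R 4.3.3. The edgeR step was tested on simulated data. TPM shares use the deposited TPM. Sequences and coordinates come from GRCh38 with GENCODE 44. An exact permutation test of 3 against 3 cannot go below p = 0.10, so single ratios have no test. All tested members, the 5 most counted copies and at most 3 genes per list with the smallest p-values were named, with exceptions stated. The members and lists were chosen with earlier results of these data known. Libraries held 36649997 to 48019126 estimated counts, and floors cover counting error only. Since replicates of 1 cell line share their source, p-values measure the spread between these cultures.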

Additional observations from a re-analysis of the deposited data

How the results depend on the processing

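All 15 members were lower in suspension under DESeq2 (3192 genes called in all), limma-voom (3251), other scalings to nuclear genes or library totals, other filters, TPM-based counts (1396 in all) and an adjusted p of 0.01 (1405), against 3297 in the result above, and also without each library (1935 in all without attached replicate 3, 1951 without suspended vehicle replicate 2). With attached replicate 3 left out, the range was -1.21 to -0.37. Scaled to the mitochondrial sum, which by construction removes a shared change, 2 members were lower and 4 higher, and these log2 fold changes turned positive: MT-RNR1 0.57, MT-RNR2 0.34, MT-CO1 0.01, MT-CO2 0.14, MT-ATP8 0.22, MT-CO3 0.27, MT-ND3 0.54 and MT-ND4L 0.10. Per length (TPM), the log2 ratios of the mRNA shares, suspended to attached, moved from -0.17 to -0.11 for complex I, from -0.03 to -0.13 for complex III and from 0.14 to 0.07 for complex IV.

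For AT-0174, 0 members were called except with no filter on low counts, where 11 were higher (499 genes in all, 121 in the result above, 239 with DESeq2, 31 with TPM-based counts). The cause was not tested. Scaled to the mitochondrial sum, values turned negative for MT-RNR1 (-0.04), MT-RNR2 (-0.04), MT-CO2 (-0.01), MT-ATP8 (-0.04), MT-ATP6 (-0.04), MT-CO3 (-0.12), MT-ND3 (-0.11), MT-ND6 (-0.15) and MT-CYB (-0.11). The MT-ND6 value was also -0.00074 with TMM over nuclear genes, -0.02 with library totals, -0.0027 with at least 10 counts in every library, -0.0018 with the replicate block and -0.00087 from TPM. With 1 library left out at a time, the ranges that crossed 0 were -0.01 to 0.24 for MT-RNR2, -0.03 to 0.29 for MT-ATP8, -0.06 to 0.28 for MT-ATP6, -0.10 to 0.18 for MT-CO3, -0.04 to 0.12 for MT-ND3, -0.11 to 0.06 for MT-ND6 and -0.05 to 0.21 for MT-CYB.

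Replicate numbers did not pair the samples, since same-number correlations were -0.0652 to 0.0526 and 1 of 9 libraries correlated best with its own number. With the replicate block, 15 members were lower in suspension (3250 genes in all) and 0 were called with AT-0174 (146 in all). The addition of the nuclear copies was an alternative chosen after seeing the data. Over all settings and members, 302 log2 fold changes for suspension and 282 for AT-0174 kept their direction and their side of the threshold. Of the others, 8 were reversed and 5 weaker for suspension, and 22 were reversed and 11 stronger for AT-0174. Since 0 members were called with AT-0174 in the result above, keeping the side there means staying uncalled.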
